A study of Mus musculus with 4 samples.

Results

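The constitutive proteasome genes are the genes for the subunits of the proteasome that all cells make. They were taken by symbol, as Psma, Psmb, Psmc or Psmd followed by a number, leaving out the immune subunits Psmb8, Psmb9 and Psmb10. Of the 11049 genes listed for all 4 libraries, 34 met that rule, which uses no measured value, though the set was proposed with earlier results of these data known. The cells came from kidneys of C57BL/6J mice aged 10 to 14 weeks, in 4 groups of 1 library each. Mice of the first group had hypertension induced with angiotensin II, a hormone that raises blood pressure, and their controls received saline. Mice of the other model had salt-sensitive hypertension, and their controls ate a normal diet; how that hypertension was produced was not stated in the sources available. Kidneys of a group were pooled before dissociation, and cells were bound to beads with antibodies to CD31, an endothelial protein, and then to podoplanin, which marks lymphatic endothelium and some epithelia. The study asked how hypertension affects renal lymphatic endothelial cells and how the models differ.

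The proteasome degrades proteins that carry ubiquitin chains. Its barrel-shaped core particle stacks rings of alpha subunits, which form the gate, around rings of beta subunits, of which Psmb5, Psmb6 and Psmb7 cut peptide bonds. The regulatory particle caps the barrel: its base holds ATPases that unfold substrates and the scaffold and receptor subunits, and its lid removes ubiquitin. In endothelium the proteasome is known for turning over signalling proteins and hypoxia factors, and cells respond to a shortage of proteasome activity by transcribing its genes together through the factor Nfe2l1. The 34 genes comprise 7 of the alpha ring, the 3 catalytic beta genes, 4 other beta genes, 6 ATPases, 3 non-ATPase genes of the base (Psmd1, Psmd2 and Psmd4) and 8 of the lid. The remaining 3, Psmd5, Psmd9 and Psmd10, encode assembly chaperones that leave the finished particle.

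Cells were called endothelial where Pecam1, Cdh5, Kdr and Tie1 together reached 3 UMIs (unique molecular identifiers, each 1 captured transcript) and 12 per 10000 UMIs of the cell. The rule gave 1223 of 2837 cells of the angiotensin II library, 1517 of 3284 of the salt-sensitive library, and 19 of 2406 and 126 of 2008 of the control libraries, called 1 and 2 by barcode ending, since their model could not be assigned from the labels. Endothelial UMIs totalled 5517870, 3960786, 34358 and 343076, and those of other cells lay between 1369986 and 2740944. 10 other endothelial markers summed to between 11985 and 15523 CPM (UMIs per 1000000 UMIs of the summed cells) in endothelial cells of 3 libraries and to between 1031 and 2589 CPM in other cells. Control library 1 stood apart: its 19 endothelial cells held 7335 CPM of those markers, none of Cldn5, and 8935 CPM of 16 proximal tubule markers, against 775 to 1409 CPM in the other 3 libraries. Of 7 lymphatic markers 2 are among the shared genes, and they summed to between 87.3 and 128 CPM in endothelial cells, so the lymphatic identity named in the labels was not checked further. The other cells were mostly barcodes led by proximal tubule markers, 91.2% to 97.2% of them. Libraries shared between 0 and 2 cell barcodes. Control below means both control libraries summed. With 1 library a group no test of hypertension against control or between the models was made, and the 95% intervals cover counting error only. Endothelial and other cells of the same library form 4 pairs, over which that difference was tested.

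RefSeq promoter windows on GRCm38.p6 were found for 28 of the 34 genes. The 250 bases before the start are shown for 5 of them: the catalytic Psmb5 and Psmb6, the ATPase Psmc4, which differed most between the hypertension libraries, and Psmd4 and Psmd14, for which the difference between endothelial and other cells was small or turned round. Capitals mark the core of the antioxidant response element, TGANNNNGC, to which Nfe2l1 and Nfe2l2 bind, and the CCAAT box, each on either strand. Each window ends at the base before the RefSeq start, which differs by some bases from that of GENCODE for Psmb5, Psmb6 and Psmc4.
Psmb5, chr14:54617996-54618245, minus strand: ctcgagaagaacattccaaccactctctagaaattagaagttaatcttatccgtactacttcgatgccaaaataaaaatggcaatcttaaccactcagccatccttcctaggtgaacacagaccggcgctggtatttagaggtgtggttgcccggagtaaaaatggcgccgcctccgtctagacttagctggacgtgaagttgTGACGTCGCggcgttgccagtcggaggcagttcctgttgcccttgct
Psmb6, chr11:70525107-70525356, plus strand: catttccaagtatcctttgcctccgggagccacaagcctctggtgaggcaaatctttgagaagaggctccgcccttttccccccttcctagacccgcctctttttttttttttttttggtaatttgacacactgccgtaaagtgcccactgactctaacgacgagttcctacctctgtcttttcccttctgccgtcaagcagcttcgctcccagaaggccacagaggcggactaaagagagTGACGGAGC
Psmc4, chr7:28050093-28050342, minus strand: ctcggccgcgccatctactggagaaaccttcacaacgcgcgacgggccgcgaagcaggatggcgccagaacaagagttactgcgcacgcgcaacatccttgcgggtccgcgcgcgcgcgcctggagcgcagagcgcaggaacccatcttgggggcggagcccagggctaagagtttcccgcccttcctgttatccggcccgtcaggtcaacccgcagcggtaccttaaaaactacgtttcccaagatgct
Psmd4, chr3:95042615-95042864, minus strand: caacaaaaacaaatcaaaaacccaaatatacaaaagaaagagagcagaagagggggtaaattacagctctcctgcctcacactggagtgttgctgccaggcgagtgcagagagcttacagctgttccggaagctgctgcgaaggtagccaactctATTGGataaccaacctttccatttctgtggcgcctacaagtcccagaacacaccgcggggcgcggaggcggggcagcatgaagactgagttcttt
Psmd14, chr2:61711444-61711693, plus strand: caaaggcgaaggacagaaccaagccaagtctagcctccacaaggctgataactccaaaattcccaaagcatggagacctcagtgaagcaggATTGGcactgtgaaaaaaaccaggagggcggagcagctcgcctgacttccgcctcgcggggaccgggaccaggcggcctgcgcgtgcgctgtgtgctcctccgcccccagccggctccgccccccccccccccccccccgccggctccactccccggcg
The antioxidant element core was present for 11 of the 28 genes (39.3%), against 41.7% of the 8763 shared genes with a window, and CCAAT for 11 genes (39.3%, against 40.1%). The ETS core CCGGAAG, on either strand, was present for 9 genes (32.1%), against 16.2% of shared genes, among them Psmd4 above. The heat shock core GAANNTTC was found for Psmb5 alone, against 6.17% of shared genes. In the windows shown, Psmb5 and Psmb6 hold the antioxidant element core, Psmd4 and Psmd14 the CCAAT box and Psmc4 neither. No factor's binding was measured.

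In endothelial cells the 34 genes together gave 5068 CPM in the angiotensin II library (95% exact Poisson interval 5008 to 5127), 4514 CPM in the salt-sensitive library (4448 to 4581), 3289 CPM in control library 1 (2711 to 3954) and 5060 CPM in control library 2 (4825 to 5304). In other cells they gave 2357, 2292, 1878 and 2180 CPM. Every library thus held a larger share of proteasome transcripts in endothelial cells than in other cells. The alpha ring was led by Psma7, a subunit next to the gate. It was at 396, 395, 262 (9 UMIs) and 373 CPM in endothelial cells of the angiotensin II, salt-sensitive, control 1 and control 2 libraries. In other cells Psma7 stood at 107, 116, 59.5 and 101 CPM, below every endothelial value. Of the catalytic genes, Psmb6 (caspase-like activity) was found at 208, 185, 175 (6 UMIs) and 239 CPM in endothelial cells. In other cells it was at 62.7, 59.7, 36.5 and 48.2 CPM, again without overlap. Psmb5, the chymotrypsin-like subunit and target of bortezomib, was at 180, 175, 29.1 and 204 CPM in endothelial cells and at 48.7, 48.2, 29.6 and 50.4 CPM in other cells. Its value in control library 1 is 1 UMI, so only the other 3 libraries bear on it. Psmb7, the trypsin-like subunit, was at 102, 85.3, 29.1 (1 UMI) and 96.2 CPM in endothelial cells and 53.0, 45.8, 51.4 and 43.8 CPM in other cells. It was the lowest of the 3 in endothelial cells of the angiotensin II, salt-sensitive and control 2 libraries. In other cells it was the lowest in the salt-sensitive and control 2 libraries. There it lay between Psmb5 and Psmb6 in the angiotensin II library and was the highest in control library 1. Among the non-catalytic beta genes Psmb1 was highest in endothelial cells, at 275, 257, 116 (4 UMIs) and 277 CPM. A level here counts transcripts by their 3′ end and is not scaled to length, so these orders compare captured transcripts.

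In the regulatory particle Psmc3 was the highest ATPase in endothelial cells by the mean of both hypertension libraries and the summed control, though other ATPases exceeded it in both controls. It was at 163, 163, 116 (4 UMIs) and 117 CPM, against 90.5, 91.5, 60.9 and 71.5 CPM in other cells. Psmd7, a lid scaffold paired with the deubiquitinase Psmd14, led the lid at 194, 177, 175 (6 UMIs) and 178 CPM in endothelial cells and 123, 115, 94.9 and 93.4 CPM in other cells. Endothelial values of both lay above all values in other cells. The ubiquitin receptor Psmd4, the highest endothelial base gene by the same measure though below Psmd1 in control library 1, had levels that lay closer together: 142, 131, 175 (6 UMIs) and 128 CPM in endothelial cells and 130, 111, 115 and 115 CPM in other cells. Of the chaperones Psmd9 was highest by that measure, with Psmd10 above it in control library 2. Psmd9 was at 57.3, 50.2, 116 (4 UMIs) and 52.5 CPM in endothelial cells and 56.2, 45.8, 45.2 and 46.0 CPM in other cells. The order of the 34 genes was alike in endothelial cells of the angiotensin II and salt-sensitive libraries (Spearman rho across genes 0.96) and of control library 2 (0.94 and 0.92), and less alike between endothelial and other cells of 1 library (0.62, 0.64 and 0.47). These are descriptions over 34 genes, which are not independent replicates.

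**Figure D1:**
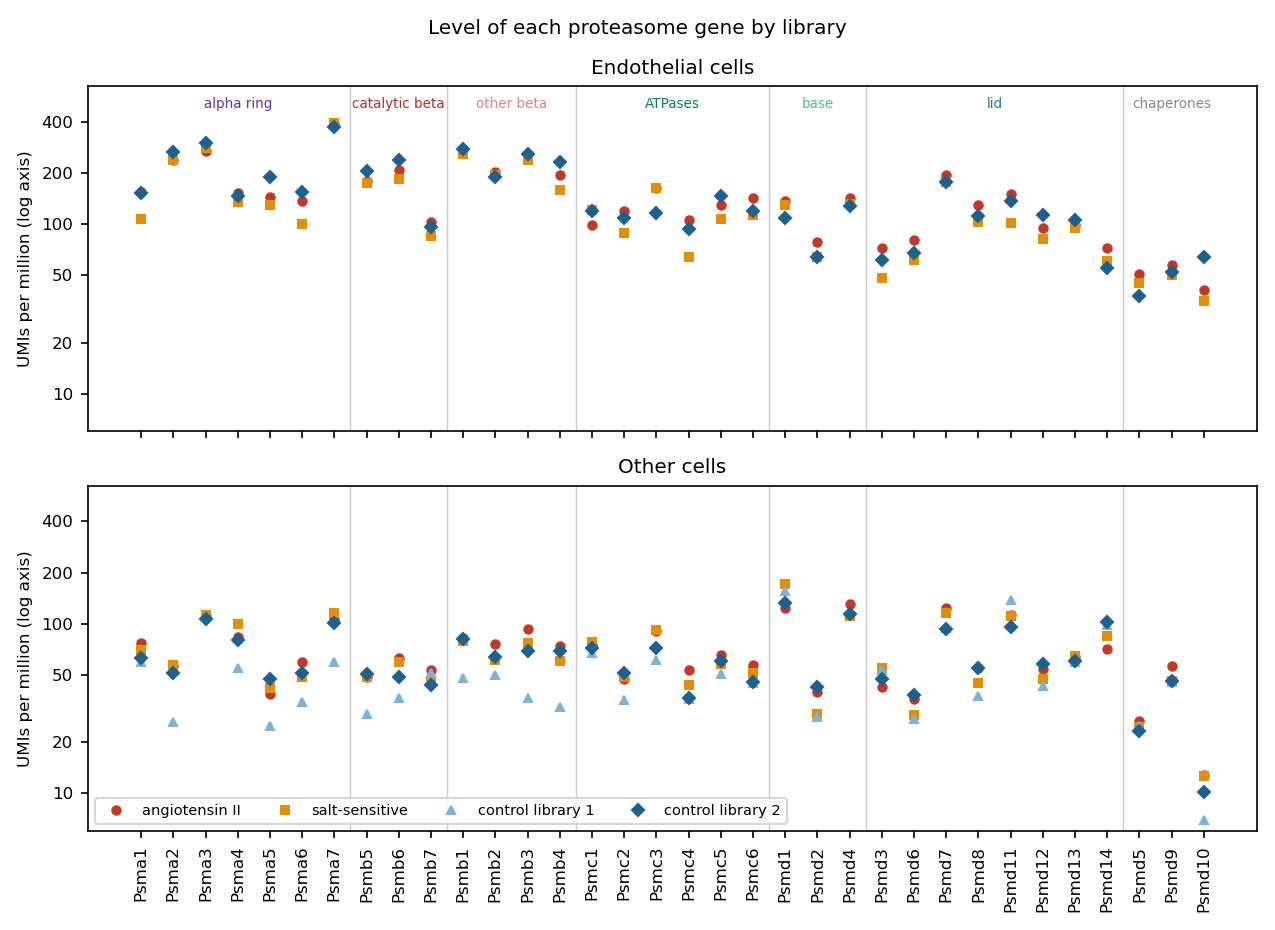
Level of each of the 34 genes (CPM, log axis) in endothelial cells (top) and other cells (bottom), 1 point a library, ordered by subunit group; control library 1 is left out of the top panel because its values rest on 0 to 9 UMIs. Psma7 is the highest endothelial gene in each library drawn, and the core particle groups on the left drop further than the base and lid from the top to the bottom panel.

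Endothelial cells exceeded other cells by a log2 ratio of the summed level of 1.10 (95% exact conditional interval 1.06 to 1.15) in the angiotensin II library, 0.98 (0.93 to 1.02) in the salt-sensitive library, 0.81 (0.53 to 1.08) in control library 1 and 1.21 (1.13 to 1.30) in control library 2. The median over all genes tested was -0.21, -0.20, 0.02 and -0.25. Per gene, with 5 CPM added to each level and a mean of at least 20 CPM required, 28 of 34 genes were higher by a log2 ratio of at least 0.5 in the angiotensin II library, where 32.1% of all 8628 genes tested were. The counts were 27 of 34 in the salt-sensitive library (30.6% of all genes), 19 of 33 in control library 1 (34.2%) and 28 of 34 in control library 2 (31.9%). Of 33 genes tested in all 4 libraries, 16 were past that fold in each, against 19.6% of 7299 genes, and 25 of 33 were so in the 3 libraries without control library 1, against 23.9%. Over the 4 pairs edgeR's quasi-likelihood test with the library as a block called 30 of 34 genes higher and 0 lower at a Benjamini-Hochberg adjusted p under 0.05, against 33.7% of 11046 genes called higher. The genes not called were Psmd1 (adjusted p = 0.60), Psmd14 (0.65), Psmd11 (0.12) and Psmd9 (0.055). Leaving out each library in turn gave 28 to 32 genes. The pairs come from libraries of different groups, so they are replicates of the difference between classes only. For the summed level, the mean ratio was 1.03 ± 0.17 (SD, n = 4), above 0 in 4 of 4 libraries, with an exact two-sided sign-flip permutation p of 0.125, the smallest that 4 pairs allow.

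The excess was larger for the core particle than for its cap. Core genes summed to log2 ratios of 1.51, 1.45, 1.27 and 1.73 in the angiotensin II, salt-sensitive, control 1 and control 2 libraries, and the 17 regulatory genes to 0.69, 0.47, 0.40 and 0.64. Core minus regulatory was 0.94 ± 0.12 (SD, n = 4), above 0 in 4 of 4 libraries (exact sign-flip permutation p = 0.125, again the smallest possible). Nuclear oxidative phosphorylation genes, 76 in number, gave 0.96, 0.98, 0.94 and 1.20 in the same contrast and 80 cytosolic ribosomal protein genes 1.70, 1.79, 2.47 and 1.46, so an excess in endothelial cells was not particular to the proteasome. Among regulatory genes the ATPases were at 0.97, 0.82, 0.66 and 1.06, the lid at 0.67, 0.40, 0.21 and 0.59, and the base scaffold and receptors at 0.28, 0.06, 0.45 and 0.05. Psma2, of the alpha ring, had the highest ratio in the angiotensin II library, 1.99 (1.80 to 2.39), from 239 CPM in endothelial and 56.2 CPM in other cells. It was at 239 against 56.8 CPM in the salt-sensitive library, 116 (4 UMIs) against 26.3 in control library 1 and 265 against 51.1 in control library 2. Psmd14, the lid's deubiquitinase, was at the other end and was singled out after its values were seen: 71.8 against 71.2 CPM, 60.8 against 84.6, 87.3 (3 UMIs) against 98.5 and 55.4 against 102. Its ratio was 0.01 (-0.28 to 0.31) in the angiotensin II library and -0.44 (-0.75 to -0.20) in the salt-sensitive library. Psmd1, the largest scaffold of the base, was likewise at 137 against 124, 130 against 171, 204 (7 UMIs) against 156 and 108 against 133 CPM.

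A measure within the cell class that does not depend on scaling is the share of core UMIs among core and regulatory UMIs. It was 59.2% (95% exact binomial interval 58.6 to 59.8) in endothelial and 45.1% (43.6 to 46.7) in other cells of the angiotensin II library, and 61.1% (60.3 to 61.8) and 44.2% (42.9 to 45.6) in the salt-sensitive library. Control library 2 gave 62.7% (60.3 to 65.0) and 44.1% (42.2 to 45.9). Control library 1 gave 50.9% (41.0 to 60.8), from 106 UMIs, and 36.3% (35.0 to 37.7). The intervals of the classes do not overlap in any of the 4 libraries.

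**Figure D2:**
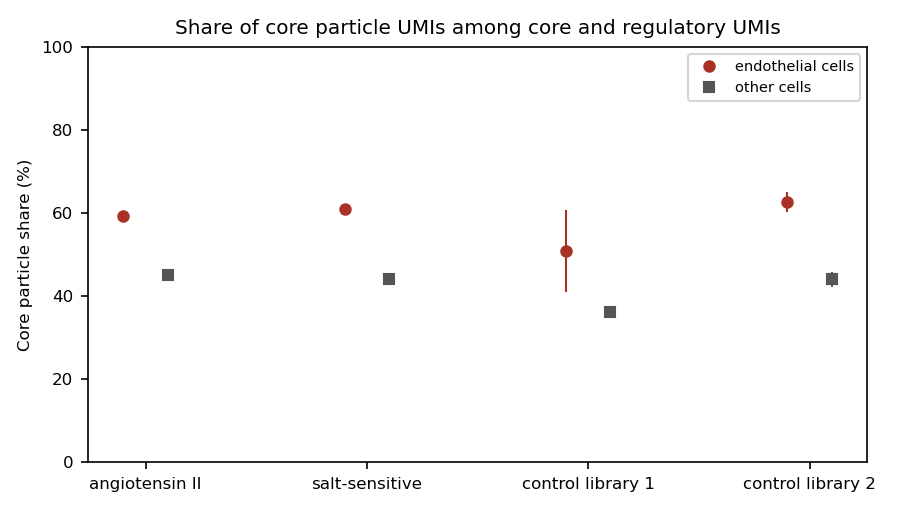
Core particle share of the UMIs of 14 core and 17 regulatory genes (percent), by library, for endothelial cells (circles) and other cells (squares); bars are 95% exact binomial intervals. The endothelial point lies above the other point in each library, and control library 1 is lowest in both classes.

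Gene span, the distance from a gene's first to last base in the GENCODE annotation of GRCm38, moved with this ratio over all genes. In the angiotensin II library the median ratio of all genes was lower in each longer class: 1.29 for spans up to 5 kb, 0.70 up to 10 kb, 0.33 up to 20 kb, -0.25 up to 50 kb, -0.57 up to 100 kb and -1.10 beyond. The members' medians were 1.66 (3 genes), 0.94 (9), 0.89 (9), 1.19 (8) and 0.14 (5), and 32 of the 34 lay above the median of their span class, as did 29 of 34, 21 of 33 and 32 of 34 in the salt-sensitive, control 1 and control 2 libraries. Across the 34 genes Pearson's r of ratio with log span was -0.39, against -0.42 across 8568 genes, which share libraries and depth. The contrast of core and cap had the same direction on either side of 20 kb. The split did not match the groups for span, because core genes had the shorter median span on either side. Within a side it thus does not separate the contrast from span. Up to 20 kb, 7 core genes (2.49 to 11.5 kb) had medians of 1.43, 1.55, 1.23 and 1.83 in the 4 libraries and 13 regulatory genes (6.51 to 19.9 kb) had 0.89, 0.80, 0.08 and 0.76. Above it, 7 core genes (21.7 to 61.0 kb) had 1.37, 1.53, 1.08 and 1.51 and 4 regulatory genes (24.9 to 88.7 kb) had 0.27, -0.25, -0.33 and 0.10. The 7 core genes above 20 kb were each longer than the 13 regulatory genes up to 20 kb. The median of those core genes was still the higher in all 4 libraries. Neat1, a nuclear RNA, stood at 291, 335, 2881 and 417 CPM in endothelial cells of the angiotensin II, salt-sensitive, control 1 and control 2 libraries. In other cells it stood at 2971, 3257, 4703 and 4137 CPM. Endothelial cells of control library 1 thus held far more of it than those of any other library. No label states if intronic reads were counted. The part of span and of nuclear RNA in the ratio was not tested.

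**Figure D3:**
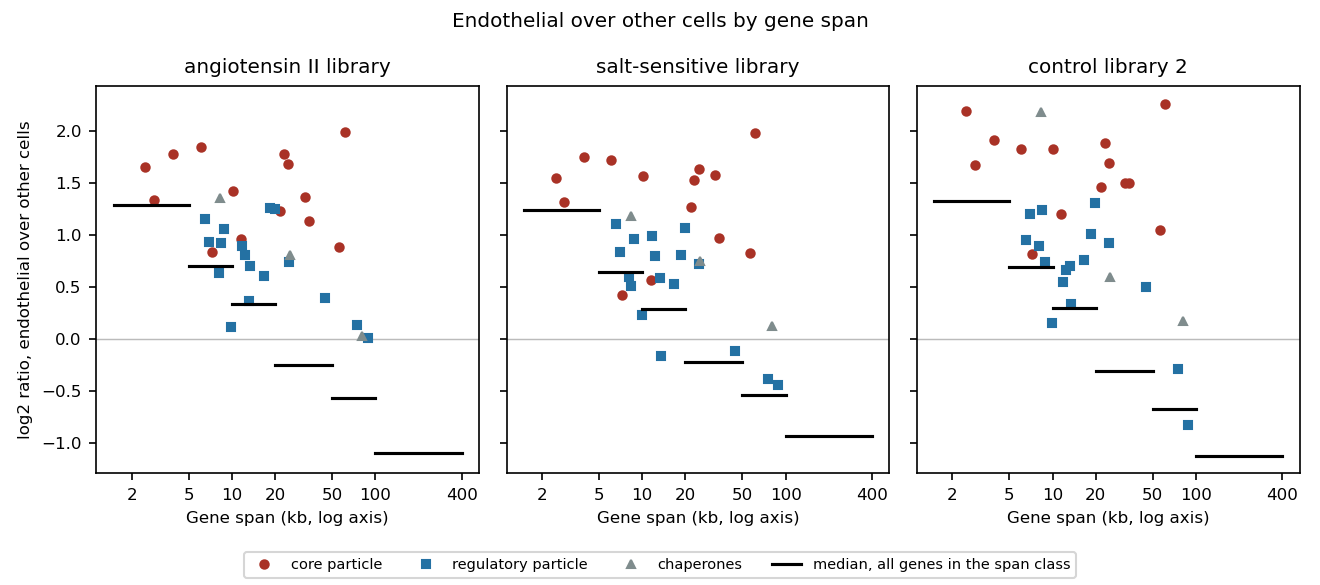
Log2 ratio of endothelial over other cells against gene span (kb, log axis) for the 34 genes in 3 libraries; black lines are the medians of all tested genes in each span class, the last class being open-ended. Core genes (circles) lie above the line of their class at most spans, and the regulatory genes (squares) lie closer to it.

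Between the hypertension libraries the endothelial proteasome level was slightly higher with angiotensin II. The summed ratio over the salt-sensitive library was 0.17 (0.14 to 0.19), a 1.12-fold difference, with a median over all genes of -0.01. Of the 34 genes 30 had a ratio above 0, as did 48.9% of 7300 genes, and 4 were past 0.5, as were 6.23%, with 0 lower (6.59%). For 18 genes the counting interval lay above 0 (22.9% of all genes) and for 1, Psmc1, below it (24.5%). The ratio was 0.12 for the core particle (0.09 to 0.16) and 0.23 for the regulatory particle (0.19 to 0.28), with the lid at 0.29. The ATPase Psmc4 was at 105 CPM in the angiotensin II and 63.6 CPM in the salt-sensitive library, 0.69 (0.51 to 0.95). In control library 2 it was at 93.3 CPM, while control library 1 had 0 UMIs, which allows up to 87.3 CPM. Psmd11, a lid subunit, stood at 151 and 101 CPM (0.55, 0.40 to 0.74) and at 58.2 (2 UMIs) and 137 CPM in the controls. Psmd3, also of the lid, stood at 71.9 and 48.2 CPM (0.53, 0.32 to 0.83) and at 146 (5 UMIs) and 61.2 CPM in the controls. The fourth past the fold was the alpha subunit Psma1, at 154 and 107 CPM (0.51, 0.36 to 0.70). These 4 genes were picked for an angiotensin II value above the salt-sensitive one, which also favours a low salt-sensitive value. For each of them the salt-sensitive value was below control library 2.

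At the lower end, the ATPase Psmc1 was at 98.2 CPM with angiotensin II and 121 CPM in the salt-sensitive library, -0.28 (-0.48 to -0.12), with 58.2 (2 UMIs) and 120 CPM in the controls. The alpha subunits Psma3 (269 and 279 CPM, -0.06) and Psma2 (-0.00) came next. ATPases of a single ring thus spanned from Psmc1 to Psmc4, and the intervals of 12 of the 34 genes did not contain the summed ratio. The summed ratio of all genes is 0 by scaling. Of the 7300 genes tested, 22.9% had an interval above 0 and 24.5% one below it. The summed ratio of the 34 genes was between 0.14 and 0.19 under 8 other ways of scaling, weighting or selecting cells, among them 0.15 in cells of 2000 up to 4000 UMIs. The ribosomal protein genes had a summed ratio of -0.25 in the same comparison and the oxidative phosphorylation genes one of -0.01. By gene span the median of all genes was 0.09, 0.14, 0.11, 0.01, -0.09 and -0.18 from the shortest to the longest class, and that of the members 0.17, 0.19, 0.27, 0.16 and 0.17 in the first 5.

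Against the control neither hypertension library differed much in endothelial cells. Angiotensin II over control gave 0.05 (-0.02 to 0.12), and 0 of 34 genes were higher past the fold (8.94% of 7359 genes) and 1 lower (11.1%). Salt-sensitive over control gave -0.12 (-0.19 to -0.05), with 0 genes higher (10.7% of 7437) and 2 lower (12.6%). These ratios share the same control, and 1736 of its 1849 member UMIs come from library 2; without library 2 they became 0.62 and 0.46, with 21 and 20 genes higher past the fold (26.9% and 25.5% of all genes) and 4 and 5 lower (42.1% and 41.5%), so the salt-sensitive direction turns with that library. The ATPase Psmc3 was the highest in both, at 0.46 (0.04 to 0.95) and 0.46 (0.04 to 0.96). It was at 163 CPM in each hypertension library and 116 (4 UMIs) and 117 CPM in the controls. Next came the chaperone Psmd5 at 50.7 and 44.7 CPM against 29.1 (1 UMI) and 37.9 CPM. Its intervals spanned 0 in both models. Psmd2, a base scaffold, completed the 3 highest with angiotensin II (77.9 CPM against 29.1, from 1 UMI, and 64.1). Psmd1 did so with salt-sensitive hypertension (0.15, -0.29 to 0.63).

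The lowest in both was the chaperone Psmd10, also known as gankyrin, at 40.8 and 35.1 CPM against 58.2 (2 UMIs) and 64.1 CPM in the controls. Its ratios were -0.58 (-1.25 to 0.03) and -0.77 (-1.49 to -0.17). The alpha subunit Psma6 followed in the salt-sensitive library at 99.98 CPM, with 137 CPM in the angiotensin II library and 58.2 (2 UMIs) and 154 CPM in the controls, -0.52 (-0.95 to -0.11). Psma1 was at -0.48 there. With angiotensin II the next lowest were Psma5, at 144 CPM against 58.2 (2 UMIs) and 189 (-0.29, -0.66 to 0.08), and Psmc1 (-0.20). Both hypertension libraries lay above both controls for 4 of 34 genes (Psma7, Psmb2, Psmc3 and Psmd5), against 15.9% of 7798 genes. They lay below both for Psmd10 alone, against 17.5%. In control library 1 the 4 genes rest on 9, 4, 4 and 1 UMIs and Psmd10 on 2.

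**Figure D4:**
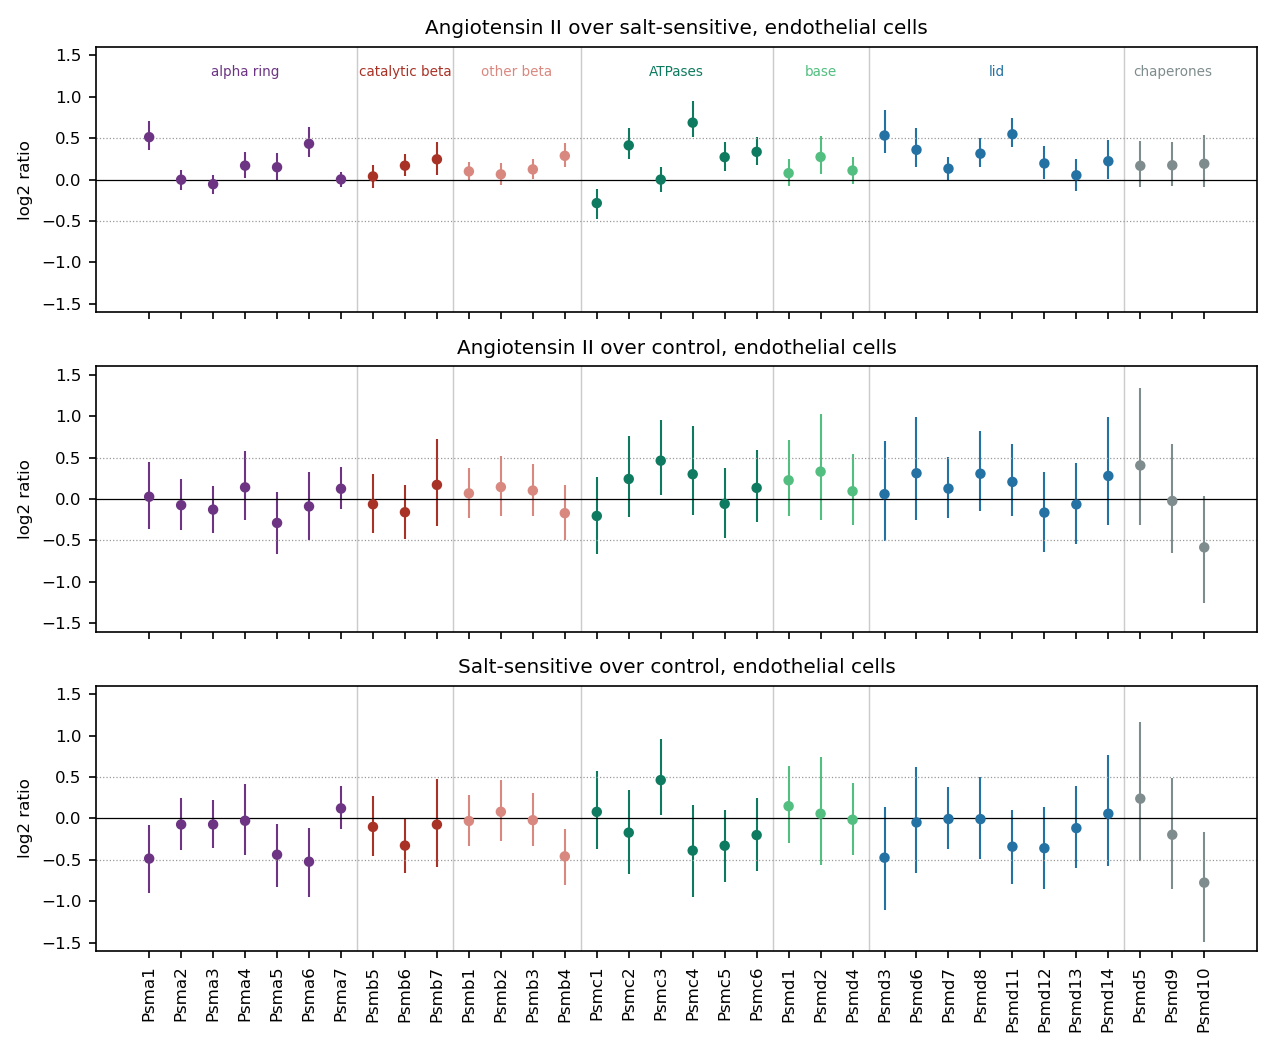
Log2 ratio of each of the 34 genes in endothelial cells for the 3 comparisons between libraries, ordered by subunit group; bars are 95% counting intervals and dotted lines mark 0.5 and -0.5. In the top panel 30 of 34 points lie above 0, led by Psmc4, while the wide bars of the lower panels reflect the 377434 UMIs of the control.

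Depth per endothelial cell differed, with medians of 4734, 2342, 1995 and 2809.5 UMIs in the angiotensin II, salt-sensitive, control 1 and control 2 libraries. Within cells of 2000 up to 4000 UMIs the summed level was 4996 CPM (4856 to 5138) with angiotensin II, 4512 (4425 to 4600) in the salt-sensitive library and 5022 (4775 to 5278) in control library 2. From the shallowest to the deepest stratum the angiotensin II level went from 4983 over 5022 and 4996 to 5084 CPM and the salt-sensitive level from 4812 over 4620 and 4512 to 4427 CPM. Tubule marker transcripts were highest in the shallowest endothelial cells, at 8194 CPM with angiotensin II and 5823 CPM in the salt-sensitive library. In other cells of control library 2 the level was 2010 CPM at 300 up to 1000 UMIs and 2970 CPM at 2000 up to 4000 UMIs, where tubule markers were 12375 CPM instead of 26347 CPM.

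**Figure D5:**
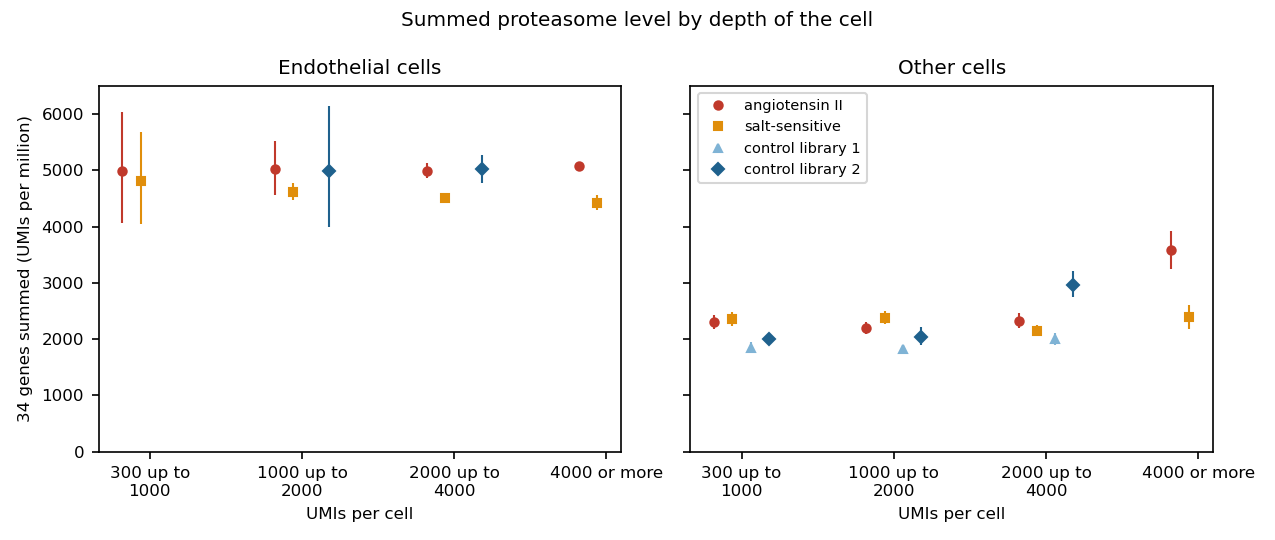
Summed level of the 34 genes (CPM) by UMIs per cell for endothelial cells (left) and other cells (right), strata of 10 or more cells, with 95% exact Poisson intervals. Endothelial points sit between 4427 and 5084, with the salt-sensitive points below the angiotensin II points, and other cells sit between 1827 and 2388 apart from the deepest strata of angiotensin II and control library 2.

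In other cells both hypertension libraries held more proteasome transcript than the summed control, by an amount that depended on control library 1. The summed ratio was 0.25 (0.20 to 0.31) for angiotensin II and 0.21 (0.16 to 0.26) for salt-sensitive hypertension, and 0.04 (-0.02 to 0.10) between them, where 0 of 33 genes were higher past the fold (4.31% of all genes). Core genes gave 0.46 and 0.39 and regulatory genes 0.10 and 0.09. Against control library 2 alone core genes gave 0.14 and 0.078 and regulatory genes 0.078 and 0.068, so the larger core ratio rests on control library 1. In cells of 2000 up to 4000 UMIs the summed ratios were 0.057 and -0.058. Ribosomal protein genes gave 0.55 and 0.71 against the summed control and oxidative phosphorylation genes 0.27 and 0.26. By gene span, from the shortest class, the median of all genes with angiotensin II was 0.36, 0.14, 0.06, -0.04, -0.10 and -0.11. That of the members was 0.58, 0.34, 0.24, 0.19 and 0.11 in the first 5. In the salt-sensitive library all genes gave 0.33, 0.05, -0.01, -0.07, -0.09 and -0.07 and the members 0.40, 0.16, 0.18, 0.10 and 0.01. The part of span in these ratios was not tested. Past the fold were 6 of 33 genes with angiotensin II (10.5% of 8706 genes), namely Psma2, Psma6, Psma7, Psmb3, Psmb4 and Psmb6, and 5 of 33 in the salt-sensitive library (8.92% of 8644), namely Psma2, Psma4, Psma7, Psmb3 and Psmb6. All of them are core genes and were named after their values were seen. The beta subunit Psmb3 had the highest ratio with angiotensin II, 93.2 and 76.8 CPM in the hypertension libraries against 36.5 and 69.3 CPM in the controls. Psmd14 was the only member below both controls in both models, at 71.2 and 84.6 CPM against 98.5 and 102 CPM, as were 23.7% of all genes. Of 33 genes 13 were above both controls in both models, against 20% of 8691 genes.

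The control libraries also differed from each other. In other cells library 2 over library 1 gave 0.22 (0.15 to 0.28), with 10 of 33 genes past the fold upward (9.04% of 8551). In endothelial cells, where library 1 held 113 member UMIs, it gave 0.62 (0.35 to 0.91). There 20 of 34 genes were past the fold upward (27.8% of 7896) and 5 downward (42.8%). Without library 1 the hypertension ratios in other cells were 0.11 and 0.072, and 0 genes passed the fold in either model. The 4 endothelial genes of the rule moved alongside, at 401 and 436 CPM in other cells of the hypertension libraries and 190 and 200 CPM in the controls. In other cells without a UMI of those genes the ratios were 0.15 and 0.059, and in other cells with over 1% tubule marker UMIs 0.087 and 0.052. Barcodes led by proximal tubule markers held 2036, 2055, 1828 and 1978 CPM of proteasome transcript in the angiotensin II, salt-sensitive, control 1 and control 2 libraries. Barcodes led by none of 4 marker sets held 6045, 4925, 3225 and 3981 CPM. They were 5.27%, 7.13%, 0.545% and 2.82% of other cells. Their endothelial rule genes summed to 836, 926, 753 and 550 CPM, against 367, 395, 190 and 199 CPM in the proximal tubule barcodes. Whether they include endothelial cells below the threshold was not tested. In sums over mixed cells fewer cells of a type and less RNA per cell cannot be told apart.

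Genes that work with the constitutive proteasome were grouped by function. Among those given here 2 immune subunits and Nfe2l1 were past the fold between the hypertension libraries. The immune subunits, which replace the catalytic beta subunits after interferon signalling, gave a summed endothelial ratio of angiotensin II over salt-sensitive of 0.72 (0.66 to 0.78), with 2 of 3 past the fold. Psmb8, which takes the place of Psmb5, was at 583 CPM with angiotensin II, 359 CPM in the salt-sensitive library and 87.3 (3 UMIs) and 548 CPM in the controls. Psmb10, which replaces Psmb7, was at 342, 172, 116 (4 UMIs) and 361 CPM, 0.97 (0.86 to 1.12). The salt-sensitive library was thus lower than angiotensin II and control library 2 for both. Past the fold in this comparison were 0 of 4 activators and inhibitors tested, 0 of 5 assembly factors, 0 of 4 associated receptors and deubiquitinases and 1 of 4 transcription genes, against 6.23% of all genes higher and 6.59% lower.

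The transcription gene was Nfe2l1, the activator of proteasome genes, and it was ordered the other way: 156 CPM with angiotensin II and 261 CPM in the salt-sensitive library, with 87.3 (3 UMIs) and 122 CPM in the controls. Its ratios were -0.73 (-0.88 to -0.61) for angiotensin II over salt-sensitive and 1.10 (0.70 to 1.59) for salt-sensitive over control. Nfe2l2, the related antioxidant factor, was level at 221, 217, 262 (9 UMIs) and 207 CPM. The salt-sensitive library therefore held the highest Nfe2l1 level and a lower summed subunit level than angiotensin II or control library 2.

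Between the cell classes the partners did not all follow the subunits. The core assembly factor Pomp was at 358, 333, 116 (4 UMIs) and 338 CPM in endothelial and 84.6, 74.0, 31.0 and 62.8 CPM in other cells. Sem1, a small lid subunit without a Psmd symbol, was at 495, 512, 291 (10 UMIs) and 633 CPM against 96.4, 118, 49.3 and 97.1 CPM. Psme4, the nuclear activator PA200, was lower in endothelial cells, at 75.0, 99.7, 204 (7 UMIs) and 90.4 CPM against 179, 255, 320 and 258 CPM. Ddi2, the protease that activates Nfe2l1, was lower too, at 62.5, 78.3, 146 (5 UMIs) and 52.5 CPM against 268, 230, 277 and 250 CPM. Psme4 spans over 100 kb, a class in which the median ratio of all genes was -1.10, -0.94, -0.46 and -1.12. Ddi2 lies in the class of 20 to 50 kb, where that median was -0.25, -0.22, -0.0037 and -0.31. Of all genes tested, 41.4%, 40.6%, 32.2% and 43.7% were lower in endothelial cells by a log2 ratio of at least 0.5. The part of span in these differences was not tested.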

How the data were processed

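RNA of single cells in 4 libraries was tagged at the 3′ end in droplets. Values in the deposited tables are whole UMI counts, with no normalization by the authors visible in them. Cell Ranger 7.0.0, Seurat 4.1 and mm10 stand in the submitters' processing notes with no role attached. A table joining both hypertension libraries served only as an alternative. Column names give no sample, so tables were matched to groups by name and control libraries by barcode ending.

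Counts were summed over endothelial and over other cells of each library and scaled to CPM over the 11049 genes listed in all 3 tables used. Per-gene log2 ratios are of CPM + 5 and apply to genes with a mean of 20 CPM or more, while summed ratios and all intervals are of the plain sums, so that for low genes an interval is not centred on its ratio. Intervals are exact conditional binomial (Clopper-Pearson) for ratios, exact Poisson for levels and exact binomial for shares, at 95%. A count of 0 allows 3 counts. Intervals and floors cover counting error only. Doublets were not removed, and no cell was left out. A gene past the fold has a log2 ratio of at least 0.5 in size.

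Named with values are the catalytic genes, the highest gene of each subunit group by mean endothelial level of the hypertension libraries and the summed control, and the 3 highest and 3 lowest ratios of each endothelial comparison; Psmd14 in the comparison of classes and the genes named in other cells or among the partner genes were chosen after their values were seen. The members, gene lists and marker lists were chosen with earlier results of these data known. Gene spans come from GENCODE for 34 of 34 members and 10960 genes in all. The difference between the classes was tested over the 4 libraries with edgeR 4.0.16 in R 4.3.3 (quasi-likelihood, TMM scaling, filterByExpr, library as a block) on the summed counts, a test added after seeing the data. The scripts were checked on simulated counts. Python 3.11.15, numpy 2.4.6, scipy 1.17.1 and pandas 2.3.3 were used. Alternatives were median centring, scaling to every gene of a table, another pseudocount, no filter on low values, leaving out each control library, equal weight per cell, thinning to 500 UMIs, a stricter endothelial threshold, limits on tubule markers and the joined table. A depth stratum and other cells without endothelial UMIs were added after seeing the data. Results of 1 further gene list are not reported here.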

Additional observations from a re-analysis of the deposited data

Results flagged for a closer look

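Psmd1, the base scaffold, lay on opposite sides of the control in other cells of the hypertension libraries. The angiotensin II library gave a log2 ratio over control of -0.24 (95% counting interval -0.48 to -0.03) and the salt-sensitive library 0.20 (0.03 to 0.39). Its levels were 124 CPM with angiotensin II, 171 CPM in the salt-sensitive library and 156 and 133 CPM in control libraries 1 and 2. Each model is 1 library, both ratios share the control, and the difference was not tested.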

How the results depend on the processing

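Of 94 alternative values of the summed ratios 70 moved by less than their counting interval, 22 moved by more and 2 with an interval clear of 0 changed direction. A value whose interval spans 0, angiotensin II over salt-sensitive in other cells, went from 0.04 to -0.013 with each cell weighted equally. Of 52 alternative counts of genes past the fold 42 stayed within 1.5 times. Without control library 2, angiotensin II over control in endothelial cells was 0.62 and salt-sensitive over control turned to 0.46, with 21 and 20 genes higher and 4 and 5 lower past the fold. The same setting gave 0.33 and 0.29 in other cells, with 12 and 10 genes higher. Without control library 1 the ratios in other cells were 0.11 and 0.072 with 0 genes higher, and 5 genes were lower in salt-sensitive endothelial cells. Median centring gave 1 gene lower there, and endothelial over other cells of 1.31, 1.18 and 1.46 in the angiotensin II, salt-sensitive and control 2 libraries. With other cells limited to those with over 1% tubule marker UMIs these were 1.35, 1.22 and 1.40, and hypertension over control in other cells was 0.087 and 0.052. With endothelial cells limited to 1% tubule marker UMIs or less, control library 1 gave 1.09. In cells of 2000 up to 4000 UMIs the ratios in other cells were 0.057 for angiotensin II over control, -0.058 for salt-sensitive over control and 0.11 between them, and endothelial over other cells was 1.07 in the salt-sensitive library and 0.76 in control library 2. In other cells without endothelial UMIs the ratios over control were 0.15 and 0.059, and endothelial over other cells was 1.21 and 1.13 in the hypertension libraries. The cause of these shifts was not tested.

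Endothelial control values rest on 145 cells, 126 of them in library 2, so a single library sets every endothelial ratio over control. Whether the control libraries are alike apart from their model cannot be told, and each group is 1 pool of kidneys, so animal variation is not measured. No paired analysis was possible because, for hypertension against control, the control libraries could not be assigned to their models and each group is 1 library. Endothelial and other cells were tested as pairs within libraries, and leaving out 1 library gave 28 to 32 genes called higher against 30 with all 4.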
